A study of Mus musculus with 17 samples.

Results

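A set of 10 genes that brake or relay the earliest transcriptional response of a cell was followed across 6 culture groups of mouse plasmacytoid dendritic cells. They are Egr1, Fos, Jun, Junb, Btg2, Dusp1, Klf2, Trib1, Sik1 and Cited2. A gene was taken when a probe set of the deposited table carried its symbol and no other, which gave 10 genes with 1 probe set each, of 19751 genes in all. The symbols were selected on readings of these same arrays over the 6 groups, seen in earlier results, and the rule sets no threshold. The readings and calls below come from one fit over the whole table, describe the 10 genes and are not independent evidence about them.

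Immediate early genes such as Egr1, Fos, Jun and Junb are switched on within minutes of a stimulus, without new protein synthesis, and their products then drive a second wave of transcription. The response is shut down by feedback proteins, among them the MAP kinase phosphatase Dusp1, the pseudokinase Trib1, the salt-inducible kinase Sik1 and Btg2, which brings mRNAs to the deadenylase that shortens their tails. Klf2 and Cited2 are known for keeping resting lymphocytes and blood stem cells out of the cell cycle. Plasmacytoid dendritic cells sense DNA through TLR9, which signals to NF-kB, MAP kinases and IRF7. The cells here were collected about a day after stimulation, long after the usual immediate early peak.

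Bone marrow of C57BL/6 mice was the source of the cells, which were purified with negative-selection beads and then by flow sorting for intermediate CD11c, B220 and SiglecH. Of 17 single-channel arrays, 2 were of cells in medium (replicates 1 and 3) and 3 of cells with LIF alone. CpG-A and CpG-B had 3 each, as did the combinations CpG-B + LIF and CpG-A + LIF. LIF, a cytokine of the interleukin-6 family that activates STAT3, was used at 10 ng/ml for 20 to 24 h. CpG-A (oligonucleotide 2216) and CpG-B (oligonucleotide 1826), both TLR9 ligands, were used at 6 µg/ml for 19 to 23 h, added 1 h after LIF where both were given. Neither the mice's age nor whether replicates came from separate mice was given, so p-values measure only the spread between these arrays, which may be technical. Because of the lost decimal marks described next, no level could be read for the sorting markers or for markers of other cell types, and the labelled cell type could not be checked by level.

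The deposited values are linear intensities that have lost their decimal mark. Trib1 in medium replicate 1, for example, is listed as 2578299146, and its power of 10 is unknown. Any whole multiple of log2(10), which is 3.32, can thus be added to a difference between groups. Each difference is given as its nearest reading (log2, from -1.66 to 1.66) with its standard error. A reading of at most 1.11 in size (2.15-fold) is said to read higher or lower, since the alternative would be 4.64-fold or more in the opposite sense. For a larger reading the direction is open and the other possibility is given too. A gene is called at an adjusted p under 0.05 (limma, Benjamini-Hochberg over all 19751 genes). Values of single arrays are log2 differences from the mean of the medium arrays. In such bulk samples, fewer cells of a type and less RNA per cell cannot be told apart.

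The 10 genes went different ways, and the oligonucleotide classes gave different sets of called readings. Against medium, CpG-A gave higher readings for Junb, Dusp1, Trib1 and Sik1. CpG-B gave a higher reading for Junb and lower readings for Klf2, Trib1 and Cited2. With an open direction, CpG-A also called Egr1, Jun and Cited2, and CpG-B called Jun and Btg2. Between the oligonucleotides directly, Egr1, Btg2, Dusp1, Klf2 and Trib1 were called. The other members, among them Junb, Sik1 and Cited2, were not. LIF alone gave lower readings for Btg2, Trib1 and Sik1 and a higher one for Cited2. When LIF was added to either CpG, 0 of the 10 were called, beside 0.00506% of all genes with CpG-A and 0.0608% with CpG-B.

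**Figure D1:**
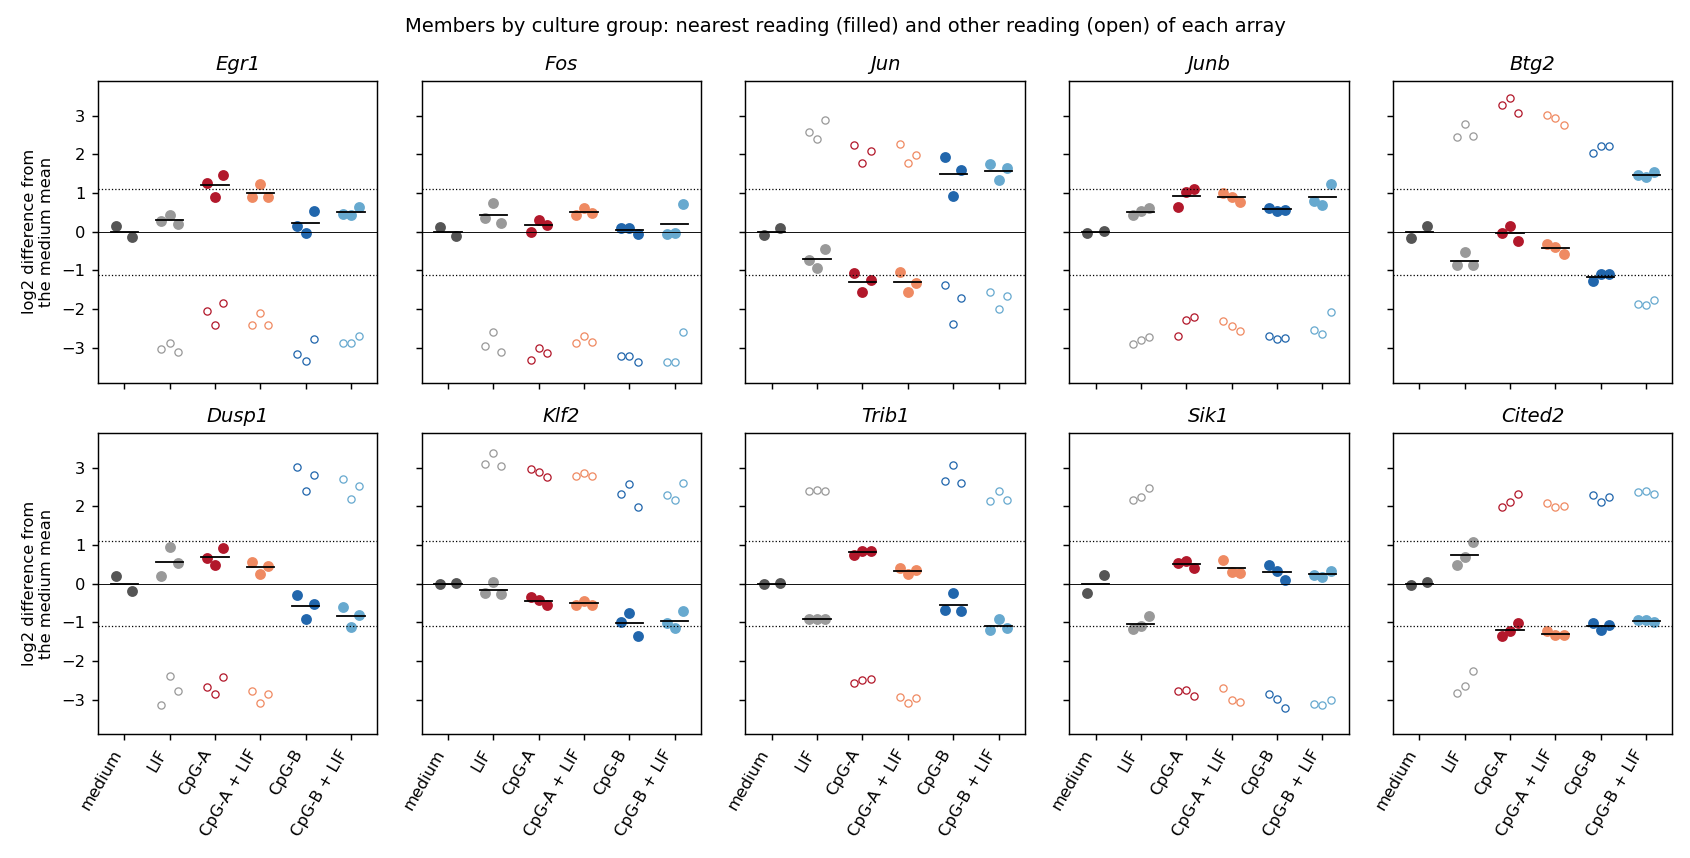
Each panel plots a gene, with the 6 culture groups on the horizontal axis and the log2 difference from the medium mean on the vertical axis. Filled points are the arrays at the nearest reading of their group, open points the same arrays at the other reading, bars the group means, and dotted lines the limit on direction. Against medium, Trib1 lies at 0.81 with CpG-A and -0.92 with LIF at the nearest readings, and Sik1 at -1.04 with LIF.

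In CpG-A vs medium, 7 of the 10 were called, 4 higher, 0 lower and 3 with an open direction, beside 16.7% of all genes called, 4.91% higher, 7.15% lower and 4.64% open. Their median size of reading was 0.744, against 0.195 over all genes. In CpG-B vs medium, 6 were called, 1 higher, 3 lower and 2 open, beside 19.2% of all genes, 6.94% higher, 7% lower and 5.27% open. The median size there was 0.58 against 0.213. These comparisons share the medium arrays. Directly between the oligonucleotides, CpG-A vs CpG-B called 5 of the 10, 2 higher with CpG-A, 0 lower and 3 open, beside 13% of all genes, 4.42% higher, 6.14% lower and 2.4% open. Among the 10, 9 had nearest readings of medium, CpG-A and CpG-B that add up, as did 98.1% of all genes, and Jun was the exception.

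**Figure D2:**
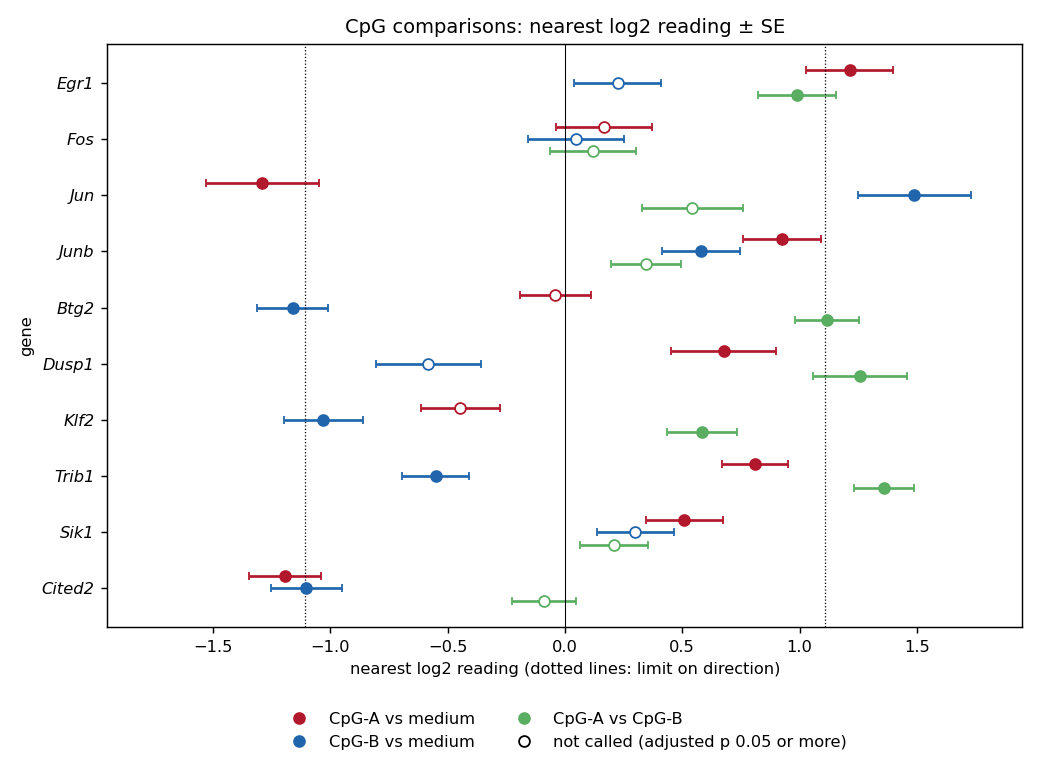
The horizontal axis is the nearest log2 reading and each row is a gene. Points are readings with bars of 1 SE for both oligonucleotides against medium and for CpG-A vs CpG-B, filled where called, and dotted lines mark the limit on direction. Trib1 lies at 0.81 in CpG-A vs medium and at -0.55 in CpG-B vs medium.

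Egr1 encodes a zinc finger transcription factor that growth factor and stress signals induce through MAP kinases. In medium its arrays stood at 0.14 and -0.14, in CpG-A at 1.26, 0.91 and 1.47, and in CpG-B at 0.16, -0.029 and 0.55. At the nearest readings the CpG-A arrays lay above those of CpG-B and apart from those of medium, and the CpG-B arrays overlapped medium. With LIF present the arrays stood at 0.90, 1.23 and 0.91 for CpG-A + LIF, 0.46, 0.44 and 0.63 for CpG-B + LIF, and 0.29, 0.44 and 0.21 for LIF alone. The readings were 1.21 ± 0.19 for CpG-A vs medium (or -2.11; adjusted p = 0.000136), 0.23 ± 0.19 for CpG-B vs medium (adjusted p = 0.477) and 0.99 ± 0.17 higher with CpG-A than with CpG-B (adjusted p = 0.000446). At the nearest readings, where all 17 arrays span 1.62, the order from low to high was medium, CpG-B, LIF, CpG-B + LIF, CpG-A + LIF and CpG-A, and arrays of the neighbouring groups overlapped between medium and CpG-B, between CpG-B and LIF, and between CpG-A + LIF and CpG-A. The place of medium against CpG-A in that order is open.

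Fos, Jun and Junb encode basic leucine zipper proteins that pair into the transcription factor AP-1. Fos had small nearest readings. Its arrays all fell within 0.856 of each other, the narrowest span among the 10, and it was called in none of the 6 comparisons. Its largest reading was 0.44 ± 0.20 in LIF vs medium (adjusted p = 0.466), where the arrays stood at 0.36, 0.74 and 0.22 against 0.11 and -0.11 in medium. In CpG-A + LIF they stood at 0.45, 0.63 and 0.48, above the CpG-A arrays at 0.0068, 0.31 and 0.18. The array CpG-B + LIF replicate 3 stood at 0.73, while the others of that group stood at -0.051 and -0.041.

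Junb read higher in CpG-A and CpG-B than in medium. Medium arrays lay at -0.030 and 0.030, LIF at 0.42, 0.53 and 0.61, CpG-A at 0.63, 1.03 and 1.12, and CpG-B at 0.63, 0.54 and 0.57. With LIF added, the CpG-A arrays lay at 1.01, 0.89 and 0.77 and the CpG-B arrays at 0.79, 0.69 and 1.24. Each of the 15 other arrays thus lay above both medium arrays at the nearest readings. CpG-A vs medium read 0.93 ± 0.17, 1.90-fold higher (adjusted p = 0.000609). CpG-B vs medium read 0.58 ± 0.17, 1.49-fold higher (adjusted p = 0.0188), and LIF vs medium 0.52 ± 0.17 (adjusted p = 0.218), which was not called. The CpG-B call was lost without medium replicate 1 (0.55, adjusted p = 0.119), medium replicate 3 (0.61, adjusted p = 0.0808) or CpG-B replicate 1 (0.55, adjusted p = 0.0542), and all alternatives lay between 0.00866 and 0.119. CpG-A vs CpG-B, at 0.35 ± 0.15, was not called (adjusted p = 0.155) but passed without CpG-A replicate 1 (0.50, adjusted p = 0.0456, with alternatives spanning 0.0456 to 0.423).

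Jun, the partner of Fos in the classical AP-1 dimer, had nearest readings below medium in the LIF and CpG-A arrays, where those of Junb were above it. Medium arrays lay at -0.092 and 0.092, LIF arrays at -0.74, -0.93 and -0.43, CpG-A arrays at -1.08, -1.55 and -1.24, and CpG-A + LIF arrays at -1.05, -1.55 and -1.33. None of the LIF, CpG-A and CpG-A + LIF arrays overlapped medium. CpG-A vs medium read -1.29 ± 0.24 (or 2.03; adjusted p = 0.000832) and CpG-B vs medium 1.49 ± 0.24 (or -1.83; adjusted p = 0.000188), so the direction is open in both. CpG-A vs CpG-B read 0.54 ± 0.22 and was not called (adjusted p = 0.118). At least 1 of these 3 nearest readings must be wrong, since their sum is off by 1 whole multiple. On a single line cut at the widest gap between arrays, readings add up for every gene, so that placing cannot tell which is wrong. The gap was 0.842 wide and the arrays spanned 2.48. Placed so, CpG-B vs medium became -1.83. Without CpG-B replicate 2 it read -1.56 (adjusted p = 8.82e-05, with alternatives from 7.09e-06 to 0.00593). The comparison of the oligonucleotides passed without CpG-B replicate 1 (0.77, adjusted p = 0.0312; range 0.0193 to 0.489). The within-group standard deviation of Jun, 0.302, lay at the 89.6th percentile of all genes, and the CpG-B arrays, at 1.94, 0.93 and 1.60, spread most.

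Among the 10 genes, Trib1 varied least within groups. Its product is a pseudokinase that brings the ubiquitin ligase COP1 to C/EBP transcription factors. Medium arrays lay at -0.0029 and 0.0029, LIF arrays at -0.92, -0.91 and -0.93, and CpG-A arrays at 0.75, 0.84 and 0.85. CpG-A + LIF arrays lay at 0.40, 0.24 and 0.35, CpG-B arrays at -0.68, -0.25 and -0.72, and CpG-B + LIF arrays at -1.20, -0.92 and -1.15. Of the 6 groups, only LIF and CpG-B + LIF overlapped. The order of some groups is open, since LIF against CpG-A was 1.59 or -1.73 and CpG-A against CpG-B + LIF -1.42 or 1.90. The within-group standard deviation, 0.133, was at the 15.0th percentile of all genes.

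The readings of Trib1 went opposite ways with the oligonucleotides. CpG-A vs medium read 0.81 ± 0.14 higher (1.75-fold, adjusted p = 0.000474) and CpG-B vs medium -0.55 ± 0.14, or 1.46-fold lower (adjusted p = 0.00914). Directly compared, CpG-A vs CpG-B read 1.36 ± 0.13 (or -1.96; adjusted p = 2.62e-06). That reading is past the limit on direction. It equals the difference of the readings against medium by arithmetic, since all come from the same group means, and adds nothing on direction. LIF vs medium read -0.92 ± 0.14, or 1.89-fold lower (adjusted p = 0.00317). The CpG-B call was lost without medium replicate 1 (-0.55, adjusted p = 0.0587) or 3 (-0.55, adjusted p = 0.0633; range over alternatives 0.00115 to 0.0633). The LIF call was lost without the same arrays, at -0.92 (adjusted p = 0.057) and -0.92 (adjusted p = 0.0696; range 0.00158 to 0.0696).

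Dusp1 encodes a nuclear phosphatase that switches off p38 and JNK. It read higher with CpG-A than with medium, at 0.68 ± 0.22 (adjusted p = 0.0454), and lower with CpG-B, at -0.58 ± 0.22, which was not called (adjusted p = 0.0812). The arrays lay at 0.18 and -0.18 in medium, 0.65, 0.47 and 0.91 in CpG-A, and -0.29, -0.93 and -0.52 in CpG-B. LIF arrays lay at 0.19, 0.94 and 0.54, CpG-A + LIF arrays at 0.55, 0.24 and 0.47, and CpG-B + LIF arrays at -0.60, -1.12 and -0.80. At the nearest readings the CpG-B arrays, with or without LIF, lay below those of medium. CpG-A vs CpG-B read 1.26 ± 0.20 (or -2.06; adjusted p = 0.000277). Dusp1 spread widely within groups, at the 85.3th percentile of all genes (standard deviation 0.276).

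The call of Dusp1 in CpG-A vs medium rested on single arrays. Without medium replicate 1 the reading was 0.86 (adjusted p = 0.0635) and without medium replicate 3 it was 0.49 (adjusted p = 0.341). Leaving out CpG-A replicate 1 gave 0.69 (adjusted p = 0.0841), and leaving out CpG-A replicate 3 gave 0.56 (adjusted p = 0.153). The call also ended without arrays of other groups, which leave the reading at 0.68 and change only the spread. These were CpG-A + LIF replicate 1 (adjusted p = 0.0522) and 3 (adjusted p = 0.0547), LIF replicate 3 (adjusted p = 0.0537), CpG-B replicate 3 (adjusted p = 0.0548) and CpG-B + LIF replicate 3 (adjusted p = 0.0545). The range over alternatives was 0.0282 to 0.341. In CpG-B vs medium Dusp1 passed without CpG-B replicate 1 (-0.73, adjusted p = 0.0469; range 0.0469 to 0.451).

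Btg2, a p53 target that slows the cell cycle, kept its medium reading in CpG-A and stood apart in CpG-B. Medium arrays lay at -0.15 and 0.15, CpG-A arrays at -0.032, 0.15 and -0.24, and CpG-B arrays at -1.27, -1.10 and -1.10. The CpG-B arrays did not overlap either of the others. CpG-A vs medium read -0.041 ± 0.15 (adjusted p = 0.912), which leaves a change near 10-fold possible. CpG-B vs medium read -1.16 ± 0.15 (or 2.16; adjusted p = 2.66e-05) and CpG-A vs CpG-B 1.12 ± 0.14 (or -2.204; adjusted p = 2.4e-05), both slightly past the limit on direction.

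The promoters of Btg2 and Dusp1 are shown because, of the members' promoters searched, they hold the cyclic AMP response element. It is a binding site for CREB and ATF factors that also sits in many immediate early genes. Promoters of 300 bases, from 250 before to 50 after the start site, were taken from RefSeq's table (GRCm38.p6) for 7 of the 10 genes. Those of Egr1, Trib1 and Sik1 were not searched, so the counts of sites below do not cover them. Both promoters shown are on the minus strand and read 5′ to 3′ in the direction of the gene, with the element TGACGTCA in capitals, Btg2 at chr1:134079106-134079405 and Dusp1 at chr17:26508423-26508722.
Btg2: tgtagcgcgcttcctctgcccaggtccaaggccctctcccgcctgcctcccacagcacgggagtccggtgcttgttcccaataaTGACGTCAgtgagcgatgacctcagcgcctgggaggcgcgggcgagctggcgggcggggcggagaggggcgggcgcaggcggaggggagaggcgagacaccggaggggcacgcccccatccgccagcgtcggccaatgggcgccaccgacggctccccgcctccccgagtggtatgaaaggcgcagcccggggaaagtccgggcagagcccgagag
Dusp1: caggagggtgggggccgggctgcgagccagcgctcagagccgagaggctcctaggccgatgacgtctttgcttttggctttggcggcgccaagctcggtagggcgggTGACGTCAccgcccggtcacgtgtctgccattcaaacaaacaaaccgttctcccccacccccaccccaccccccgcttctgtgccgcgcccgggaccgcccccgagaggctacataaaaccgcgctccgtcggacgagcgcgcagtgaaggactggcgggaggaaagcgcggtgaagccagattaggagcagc
The element begins at -166 from the start site in Btg2 and at -143 in Dusp1, and reads the same on both strands. It occurs in 1.79% of the 32851 promoters of that length in the table. On both strands, the CArG box of serum response factor (1.63% of all promoters), the AP-1 site TGANTCA (7.81%), the STAT site TTCNNNGAA (8.30%) and the EGR site GCGTGGGCG (0.612%) were found in 0 of the 7 promoters. The kappa B site of NF-kB (8.46%) was found in 1, that of Fos, at -214. A match describes letters in this window only.

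Sik1 encodes a kinase that holds back the CREB coactivators of the CRTC family. It read higher in CpG-A than in medium, at 0.51 ± 0.16 (1.42-fold, adjusted p = 0.0382), and at 0.30 ± 0.16 in CpG-B, which was not called (adjusted p = 0.238). CpG-A vs CpG-B read 0.21 ± 0.15 and was not called (adjusted p = 0.429). LIF vs medium read -1.04 ± 0.16, or 2.05-fold lower (adjusted p = 0.00355). The arrays lay at -0.23 and 0.23 in medium and at -1.17, -1.09 and -0.85 in LIF, and the LIF arrays lay below both medium arrays at the nearest reading. They lay at 0.54, 0.58 and 0.41 in CpG-A, 0.61, 0.31 and 0.26 in CpG-A + LIF, 0.48, 0.33 and 0.099 in CpG-B, and 0.22, 0.18 and 0.32 in CpG-B + LIF. From low to high, the groups other than LIF were medium, CpG-B + LIF, CpG-B, CpG-A + LIF and CpG-A at the nearest readings, and each overlapped its neighbour. The place of LIF against the CpG groups is open, at -1.54 or 1.78 against CpG-A and -1.34 or 1.99 against CpG-B. Leaving out medium replicate 1 ended the CpG-A call (0.28, adjusted p = 0.472), as did leaving out CpG-A replicate 1 (0.49, adjusted p = 0.0881) or 2 (0.48, adjusted p = 0.0994; range over alternatives 0.0174 to 0.472). The LIF call was lost without medium replicate 3 (-0.80, adjusted p = 0.117; range 0.00297 to 0.117).

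Klf2, a transcription factor of resting lymphocytes, read lowest in CpG-B. Its arrays lay at -0.0051 and 0.0051 in medium, -0.23, 0.046 and -0.27 in LIF, -0.35, -0.44 and -0.55 in CpG-A, and -0.998, -0.75 and -1.34 in CpG-B. All CpG-A arrays lay below medium and all CpG-B arrays below CpG-A. With LIF added they lay at -0.54, -0.46 and -0.54 for CpG-A and -1.03, -1.16 and -0.72 for CpG-B, overlapping the same CpG without LIF. CpG-B vs medium read -1.03 ± 0.17, 2.04-fold lower (adjusted p = 0.000202). CpG-A vs medium read -0.45 ± 0.17 and was not called (adjusted p = 0.084). Klf2 read 0.59 ± 0.15 higher with CpG-A than with CpG-B (adjusted p = 0.0128), a call that ended on leaving out CpG-A replicate 1 (0.54, adjusted p = 0.0569) or CpG-B replicate 3 (0.43, adjusted p = 0.0822; range over alternatives 0.00486 to 0.0822).

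Cited2 binds the coactivators p300 and CBP and so keeps hypoxia-inducible factors from them. At the nearest readings it was low in every CpG culture. The arrays lay at -0.032 and 0.032 in medium, -1.34, -1.22 and -1.01 in CpG-A, -1.24, -1.33 and -1.32 in CpG-A + LIF, -1.03, -1.20 and -1.07 in CpG-B, and -0.95, -0.93 and -0.996 in CpG-B + LIF. None of these 12 CpG arrays overlapped medium, and CpG-A and CpG-B overlapped each other. CpG-A vs medium read -1.19 ± 0.15 (or 2.13; adjusted p = 2.55e-05) and CpG-B vs medium -1.10 ± 0.15 (2.15-fold lower, or 2.22 on the log2 scale; adjusted p = 4.49e-05), on either side of the limit on direction. CpG-A vs CpG-B read -0.090 ± 0.14 (adjusted p = 0.755). LIF arrays lay at 0.48, 0.68 and 1.07, above those of medium, and LIF vs medium read 0.74 ± 0.15, 1.67-fold higher (adjusted p = 0.0265). The order of LIF and the CpG groups is open, since LIF against CpG-A was -1.39 or 1.94 and LIF against CpG-B -1.48 or 1.85. The call in LIF vs medium was lost without medium replicate 1 (0.71, adjusted p = 0.248), medium replicate 3 (0.78, adjusted p = 0.153) or LIF replicate 3 (0.58, adjusted p = 0.072; range over alternatives 0.0146 to 0.248).

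LIF alone called 4 of the 10 against medium, 3 lower, 1 higher and 0 open, beside 0.81% of all genes, 0.223% lower, 0.273% higher and 0.314% open. Btg2 was the remaining member called there. Its LIF arrays lay at -0.87, -0.54 and -0.86, below medium, and it read -0.75 ± 0.15, 1.68-fold lower (adjusted p = 0.024). Leaving out medium replicate 1 (-0.90, adjusted p = 0.0743) or 3 (-0.60, adjusted p = 0.284) ended the call, as did leaving out LIF replicate 1 (-0.70, adjusted p = 0.0891) or 3 (-0.70, adjusted p = 0.0673; range over alternatives 0.0129 to 0.284). Without medium replicate 3, 0 of the 10 were called, without medium replicate 1, 1 was, and without LIF replicate 3, 2 were.

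**Figure D3:**
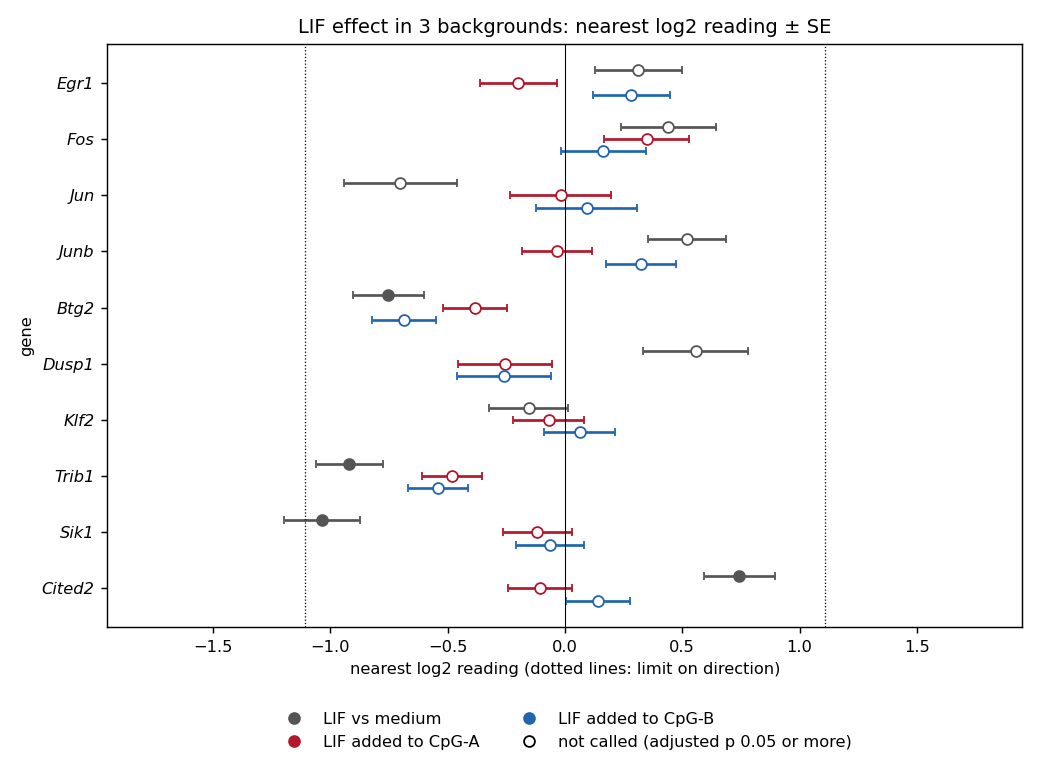
The horizontal axis is the nearest log2 reading of the LIF effect and each row is a gene. Points are readings with bars of 1 SE in medium, in CpG-A and in CpG-B, filled where called. Btg2 and Trib1 lie below 0 in all 3 backgrounds, while Sik1 lies at -1.04 in medium and at -0.12 and -0.064 with the CpGs.

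LIF added to CpG-A called 0 of the 10 by limma, beside 0.00506% of all genes, and 2 had an unadjusted p under 0.05, as had 6.08% of all genes. LIF added to CpG-B called 0, beside 0.0608% of all genes, and 3 had an unadjusted p under 0.05, as had 7.74% of all genes. Robust moderation and the replicate number as a block also called 0 of the 10 in each. Trib1 read -0.48 ± 0.13 when LIF was added to CpG-A (adjusted p = 0.347) and -0.54 ± 0.13 when it was added to CpG-B (adjusted p = 0.155). Btg2 read -0.38 ± 0.14 (adjusted p = 0.591) and -0.69 ± 0.14 (adjusted p = 0.0692). The CpG-A + LIF arrays of Btg2 lay at -0.31, -0.39 and -0.57, below those of CpG-A, and its CpG-B + LIF arrays at 1.46, 1.42 and 1.55, which is a mean of 1.48 or -1.84. Arrays with and without LIF did not overlap for 9 of the 10 genes in medium, all but Klf2, beside 25.9% of all genes. They did not overlap for 3 in CpG-A (Fos, Btg2 and Trib1), beside 11% of all genes, and for 4 in CpG-B (Junb, Btg2, Trib1 and Cited2), beside 13.9%. Btg2 and Trib1 were the 2 genes without overlap and with the same sign in all 3 backgrounds, beside 0.385% of all genes, and both were lower with LIF, beside 0.289%. That count was chosen after the values were seen.

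Whether the LIF effect differed between medium and a CpG was tested for each gene by an interaction term, the difference of 2 nearest readings. By limma, 0 of the 10 were called for CpG-A, beside 0.0506% of all genes, and 6 had an unadjusted p under 0.05, as had 7.03% of all genes. For CpG-B 0 were called, beside 0.137% of all genes, and 4 had an unadjusted p under 0.05, as had 9.87% of all genes. Sik1 had the largest difference, 0.92 ± 0.22 for CpG-A (adjusted p = 0.196) and 0.97 ± 0.22 for CpG-B (adjusted p = 0.096). Cited2 differed by -0.85 ± 0.20 (adjusted p = 0.204) and -0.60 ± 0.20 (adjusted p = 0.304), and Dusp1 by -0.81 ± 0.30 (adjusted p = 0.562) and -0.82 ± 0.30 (adjusted p = 0.36). A difference in LIF effect was thus not shown for any of these genes.

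Relatives of the 10 genes were taken from 7 lists of the same families and pathways, 62 genes of which 58 had a probe set of their own. CpG-A vs medium called 25 of the 58, 5 higher, 8 lower and 12 open, and CpG-B vs medium 27, 4 higher, 11 lower and 12 open. Those are 43.1% and 46.6% of the relatives, beside the 16.7% and 19.2% of all genes given above. The largest readings lay near the edge of what the scale can show, and their direction is open. In CpG-A vs medium they were Ppp1r15a, a phosphatase subunit of the stress response, at -1.60 ± 0.17 (or 1.72), Ier3 at 1.60 ± 0.22 (or -1.72) and the phosphatase Dusp2 at -1.59 ± 0.20 (or 1.73). In CpG-B vs medium they were Dusp2 at 1.61 ± 0.20 (or -1.71), the antiproliferative gene Tob1 at -1.60 ± 0.25 (or 1.72) and Gadd45b at 1.58 ± 0.20 (or -1.74). For 5 of the 58 relatives, Dusp2, Gadd45b, Maff, Myc and Ppp1r15a, the 3 nearest readings among these groups and medium fail to sum. Dusp2, for example, read 0.12 ± 0.18 in CpG-A vs CpG-B (adjusted p = 0.751), so its readings against medium are not shown to be opposite.

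**Figure D4:**
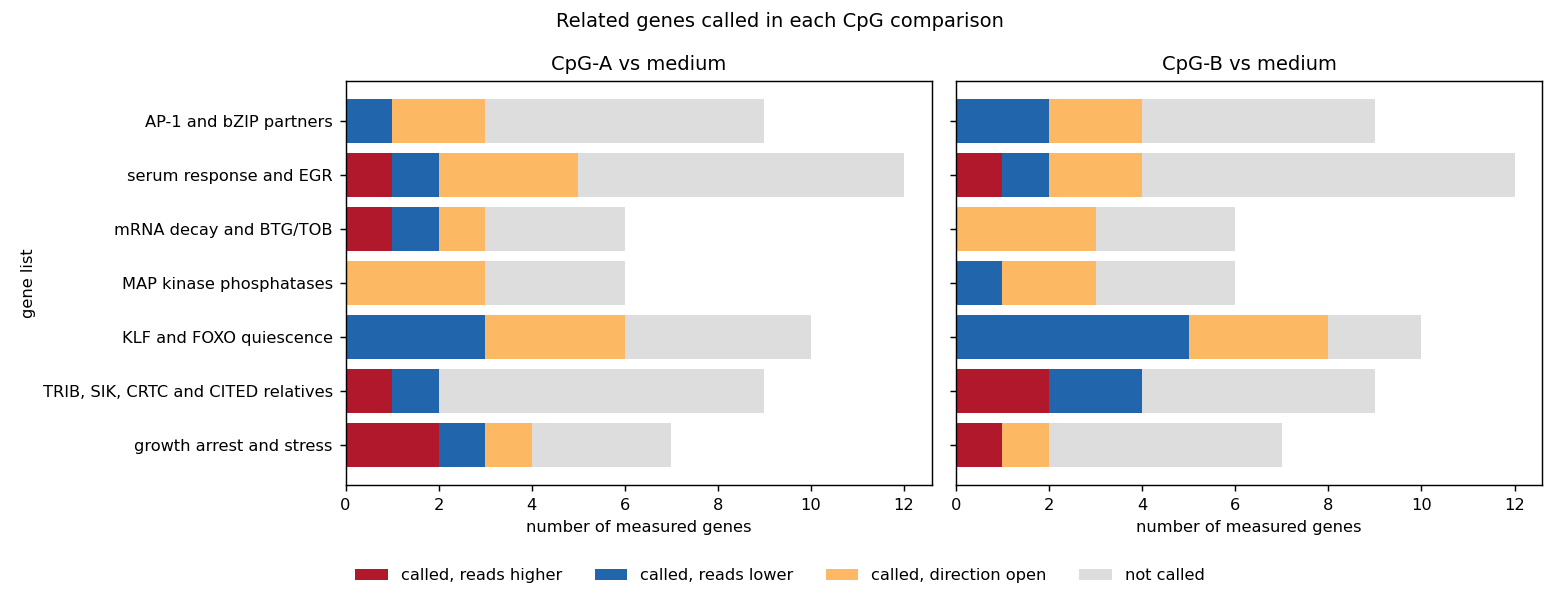
Bars count the measured genes of each of 7 lists in CpG-A vs medium and CpG-B vs medium, split by call. In the list of KLF and FOXO factors and other quiescence genes, 6 and 8 of 10 are called and 0 read higher.

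The list of KLF and FOXO factors and other quiescence genes, the family of Klf2, had the most calls. CpG-A vs medium called 6 of its 10 measured genes, 3 lower and 3 open, and CpG-B vs medium 8, 5 lower and 3 open, with median readings of -0.613 and -0.731 beside -0.021 and -0.051 over all genes. With the 3 open readings at their other value, the medians were 0.292 and -0.276, so the sign with CpG-A depends on those directions. Foxo1, a transcription factor of resting lymphocytes, read -0.61 ± 0.14 and -0.64 ± 0.14, Klf4 -0.62 ± 0.14 and -0.83 ± 0.14, and Klf3 -0.76 ± 0.19 and -0.65 ± 0.19. The CDK inhibitor Cdkn1b read -1.46 ± 0.15 (or 1.86) and -1.20 ± 0.15 (or 2.12). Foxo3 was called in CpG-B vs medium, at -0.47 ± 0.13, and read 0.84 ± 0.12 higher with CpG-A than with CpG-B (adjusted p = 9.58e-05).

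The other lists were mixed. Among 9 AP-1 and bZIP partners, 3 were called with CpG-A (1 lower, 2 open) and 4 with CpG-B (2 lower, 2 open). Atf3, a bZIP repressor, read -0.86 ± 0.19 and -0.92 ± 0.19. Of 12 serum response and EGR genes, 5 and 4 were called, each with 1 higher and 1 lower. Srf, the serum response factor that drives Egr1 and Fos, read -1.04 ± 0.17 and -0.75 ± 0.17. MAP kinase phosphatases, the family of Dusp1, had 3 of 6 called in each, 0 higher and 0 lower with CpG-A and 1 lower with CpG-B. BTG, TOB and other mRNA decay genes also had 3 of 6 called in each, and all 3 with CpG-B were open in direction. Of 9 relatives of Trib1, Sik1 and Cited2, 2 were called with CpG-A (1 higher, 1 lower) and 4 with CpG-B (2 higher, 2 lower). The CRTC coactivators, which Sik1 restrains, did not read alike with CpG-B. Crtc1 read -0.88 ± 0.16, Crtc2 0.64 ± 0.17, and Crtc3 -0.89 ± 0.33, which was not called (adjusted p = 0.0649). Trib3, a stress-induced pseudokinase, read 0.65 ± 0.17 with CpG-A and 0.70 ± 0.17 with CpG-B. Growth arrest and stress genes had 4 and 2 of 7 called, among them the heat shock gene Hspa1a at 0.80 ± 0.24 with CpG-A.

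CpG-A vs CpG-B called 11 of the 58 relatives, 19.0% beside 13% of all genes. Of these, 7 were higher with CpG-A (4.42% of all genes), 3 lower (6.14%) and 1 open (2.4%). The largest were Zfp36l1, which triggers mRNA decay, at 1.12 ± 0.16 (or -2.205), the growth arrest gene Gadd45b at 1.02 ± 0.18 and the G protein regulator Rgs2 at 0.95 ± 0.21. LIF vs medium called 2 of the 58, 3.45% beside 0.81% of all genes. They were Dusp10 at 1.15 ± 0.24 (or -2.18; adjusted p = 0.0298) and Crtc1 at -0.75 ± 0.16 (adjusted p = 0.036). With LIF added to CpG-A or CpG-B, limma called 0 of the 58, beside 0.00506% and 0.0608% of all genes. An unadjusted p under 0.05 was found for 8 and 5 of the 58, beside 6.08% and 7.74% of all genes. In LIF vs medium it was found for 15, beside 10.3%.

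Markers of other cell types were also called in the CpG comparisons. The counts below stand beside 16.7% of all genes called in CpG-A vs medium and 19.2% in CpG-B vs medium. Of 5 monocyte and macrophage markers, 3 were called in CpG-A vs medium, all open, and 3 in CpG-B vs medium, 1 lower and 2 open. Of 5 neutrophil markers, 2 and 3 were called, of 4 measured B cell markers 1 and 1, and of 5 conventional dendritic cell markers 1 and 3. Of 3 NK cell markers 0 and 1 were called, of 3 measured T cell markers 0 and 0, and of 1 measured erythroid marker 0 and 0. The sorted cells' own markers had 5 and 7 of 9 called, and 7 of 9 between the oligonucleotides, beside 13% of all genes there. In LIF vs medium, limma called 0 of the 35 measured markers, and 11 had an unadjusted p under 0.05, beside 10.3% of all genes. With LIF added to CpG-A or CpG-B it also called 0, and 5 and 7 had an unadjusted p under 0.05, beside 6.08% and 7.74% of all genes. Summed levels cannot be read here, and the markers' part in the results was not tested.

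The gene of the whole table most like each member was found by Pearson correlation over the 17 arrays, unfolded at their widest gap. It was Rin3 for Cited2 (r = 0.98), Sema4b for Btg2 (r = 0.97), Carmil1 for Trib1 (r = 0.96), Med10 for Klf2 (r = 0.95), Slc9a2 for Sik1 (r = 0.95), Clec2d for Dusp1 (r = 0.93), Cbfa2t3 for Jun (r = 0.92), Katna1 for Egr1 (r = 0.90), Birc3 for Junb (r = 0.90) and Pilra for Fos (r = 0.81). The arrays share their groups, and the highest of so many correlations is high for any gene that differs between groups.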

How the data were processed

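RMA, named in the submitters' processing notes with no version, gave linear intensities, and the values the authors deposited have lost their decimal marks: 1 of 419560 cells kept one. Of 24680 probe sets, 21354 carry 1 symbol and were used, 1275 several and 2051 none, per the platform annotation. Where a gene had several probe sets, the one listing most accessions stood for it (19751 genes). From the digits, log2 positions modulo log2(10) were computed. Group means were circular, and differences were folded to the nearest reading. They were tested in limma 3.58.1 (R 4.3.3) with 1 coefficient per group over 17 arrays, which leaves 11 residual degrees of freedom. Variances were moderated across genes, and p-values were adjusted over the whole table (Benjamini-Hochberg). The procedure was checked on simulated data. No change put into them was large enough to give a wrong direction within the limit, so the calls of direction were not checked. Arrays give no counting depth, and their number limits the precision. The median within-group standard deviation was 0.19 (log2).

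All 10 members are named. Of related genes, the 3 called with the largest readings per comparison were named, and others as examples chosen after their values were seen. The members and gene lists were chosen with earlier results of these data known.

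Alternatives were a replicate block, each array left out, all probe sets averaged, arrays centred, robust moderation and values unfolded at the widest gap. A trend, a filter on dim probe sets and quantile normalization need the lost levels and were not run.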

Additional observations from a re-analysis of the deposited data

How the results depend on the processing

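The counts of members called stayed within 1.5 times of those reported under the 5 other settings tried, and under 17 leave-one-out settings for all comparisons but LIF vs medium. Leaving out single arrays gave 5 to 7 called in CpG-A vs medium, 4 to 6 in CpG-B vs medium, 4 to 6 in CpG-A vs CpG-B, 0 to 4 in LIF vs medium, and 0 in each LIF added to CpG comparison and interaction. Leaving out a medium array leaves 1, assumed to vary like the other groups. Among single genes, Jun in CpG-B vs medium changed sign, to -1.83 when unfolded at the widest gap and to -1.56 without CpG-B replicate 2 (leave-one-out range -1.56 to 1.58). The former is the reported value, 1.49, less 1 multiple of log2(10). Deviations of arrays of different groups correlated over 0.1 in 6 of 40 pairs with the same number (highest 0.243) and in 2 of 80 pairs with other numbers (highest 0.108). As not every same-number pair did so and no label gives a shared origin, the numbers were not taken to pair the arrays. With the replicate block, 6 members were called for each oligonucleotide against medium and in CpG-A vs CpG-B, 4 in LIF vs medium, and 0 in the other comparisons and interactions. Under that block Sik1 in CpG-A vs medium lost its call (0.52, adjusted p = 0.0521) and Jun in CpG-A vs CpG-B passed (0.54, adjusted p = 0.0193). Over all genes, LIF vs medium called 160 genes, 34 without medium replicate 1 and 16 without medium replicate 3.
Calls of single members lost without 1 array stand beside those members in the report. A trend in the variance, a filter on dim probe sets and quantile normalization were not run, since levels are lost. Changes over 3.16-fold are misread, and the number of arrays, 2 in medium, limits the precision.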
